A study of Homo sapiens with 9 samples.

Results

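The data described here are the 3 RNA-seq libraries of A673 cells that received a scrambled, non-targeting siRNA, out of 9 libraries in the series. They were chosen by their label alone, and no siRNA comparison is made with them. A673 is an established Ewing sarcoma cell line, so every library comes from the same line. The other 6 libraries of the series received siRNAs against LRWD1, a partner of the origin recognition complex, within a viability screen for targets of cells that carry the EWS-FLI1 fusion. The scrambled siRNA was reverse transfected at 13 nM with siLentFect, and RNA was taken 48 h later in independent experiments. The cells grew in high glucose DMEM (4.5 g/l) with 10% serum tested for use with tetracycline systems, and with blasticidin S (2 µg/ml) and Zeocin (50 µg/ml) for selection, and the labels name no construct behind these selection agents. The profile is therefore that of transfected and drug-selected cells, not of untouched A673.

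Ewing sarcoma is a bone and soft tissue tumour of young people that is driven by a fusion of a FET family gene, usually EWSR1, with an ETS transcription factor gene, usually FLI1. The fusion protein binds GGAA repeats and turns on genes far from normal ETS targets, among them NR0B1, NKX2-2 and STEAP1, while genes of mesenchymal differentiation are held down. The cell of origin is debated between neural crest and mesenchymal stem cells, which is why markers of both lineages are of interest in a baseline profile.

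Each library held 12831417 to 15674452 counted reads, and 16444 to 16719 of the 23368 gene rows had a read. Levels are given in CPM, the count of a gene after its library was scaled to a total of 1000000 counts. A gene is called expressed at 1 CPM or more in all 3 libraries, not detected at 0 reads in all 3, and low otherwise. A count of 0 allows up to 0.191 to 0.234 CPM in a library, taking 3 reads as the limit, and this covers counting error only, since the reads carry no molecular identifiers. A rank by CPM also depends on gene length, so levels of different genes in a family or list are set beside each other as CPM per kb, after division by exon length. Of all 23368 gene rows 12589 (53.9%) were expressed, 5155 were low and 5624 (24.1%) were not detected. The share of 53.9% is the one to set beside the number expressed in each gene list below.

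Library 2 stood apart from the other scrambled libraries. The labels place libraries 1, 2 and 3 in series 1, 2 and 3, and the LRWD1 siRNA libraries carry the same series numbers. Whether series 2 as a whole differs was not tested here. The chi-square per gene was 28.4 between libraries 1 and 2 and 24.2 between libraries 2 and 3, against 3.56 between libraries 1 and 3, where sampling alone gives about 1. Spearman correlations of CPM over the 12589 expressed genes were 0.982, 0.983 and 0.997 for the same pairs, and they are across genes, which are not independent replicates. Values given in threes are those of libraries 1, 2 and 3 in this order. Without it 12792 genes were expressed, and the number expressed was the same in 27 of 35 gene lists and differed by at most 2 in the other 8.

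The libraries carried the markers of their label. FLI1, the ETS partner in the fusion, had 67.4, 74.1 and 69.5 CPM in libraries 1, 2 and 3 (mean 70.3 ± 3.45, SD, n = 3). NKX2-2, a neural homeobox factor used to diagnose the tumour, had 30.2, 30.9 and 29.3 CPM (30.2 ± 0.825). Levels of NR0B1, an orphan nuclear receptor, were 39.0, 51.0 and 40.6 CPM (43.5 ± 6.55). STEAP1, a membrane protein, had 57.2, 73.3 and 55.9 CPM (62.1 ± 9.73), and cyclin D1 (CCND1) had 2101, 2719 and 2270.04 CPM (2363 ± 319). FLI1 and NKX2-2 were even over the libraries, and the other 3 were highest in library 2. None of 26 defining markers of endothelial, blood, epithelial, muscle, melanocyte, liver, glial or fat cells was expressed. The highest of them, the melanosome gene PMEL, had 0.579 CPM, 12 had no read in any library, and all 26 summed to 3.64, 3.90 and 3.01 CPM. Other genes of these cell types were expressed and are described with the lineage lists, among them EMCN with 135 CPM, TNNT1 with 128, CLDN1 with 475 and CD68 with 35.2 CPM on average.

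CD99, the surface antigen used to diagnose Ewing sarcoma, was listed at 0 reads in all 3 libraries. This value says little of the cells. CD99 lies in the pseudoautosomal region, which X and Y share, and 20 of 22 genes of that region in the table were at 0, including SLC25A6, an ADP/ATP carrier that most cells use. The most reads any of the 22 had over the 3 libraries was 5. Genes with near-identical copies were also low. The histone gene H3F3A had 0.219 CPM on average while H3F3B, which encodes the same protein, had 328 CPM. The 89 cytosolic ribosomal protein genes held only 2.18 ± 0.0632% of the counts, and 13 of them lay under 10 CPM, among them RPS27 with 1.98 CPM. How the authors' counting treated reads that fit several places is not given in the sources used here and was not tested, so a level near 0 of a gene with such a copy is not read as absence.

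The expressed genes held 99.8% of all counts, with a median mean level of 36.2 CPM. A mean of at least 10 CPM was reached by 9753 genes, at least 100 CPM by 2579 genes and at least 1000 CPM by 58 genes. The highest 10 genes held 5.28 ± 0.723% of the counts, the highest 100 held 16.2 ± 0.921% and the highest 1000 held 46.3 ± 0.703%. In each case the share was largest in library 2, at 6.12%, 17.3% and 47.1%.

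Matrix, cytoskeleton and glycolysis genes led the ranking by mean CPM. Fibronectin (FN1), a matrix glycoprotein, came first with 12837, 15186 and 12749.6 CPM (13591 ± 1382). The collagenase MMP1 was second with 6498, 10411.5 and 6994 CPM (7968 ± 2131). Per kb the order of these genes was turned round, with 4045 ± 1082 CPM per kb for MMP1, the highest of all genes with a length, against 1494 ± 152 for FN1. Vimentin (VIM), the intermediate filament of mesenchymal cells, had 3640.45, 5885 and 3804 CPM and was also highest in library 2. Beta and gamma actin (ACTB and ACTG1) had mean levels of 4660.5 and 4182 CPM, the filament crosslinker FLNA had 2864 CPM and the tubulin gene TUBB had 2944 CPM. Other matrix genes among the highest 30 were tenascin C (TNC) with 3559 ± 451 CPM, SPARC with 2121 ± 147 CPM and collagen III (COL3A1) with 1611 ± 687 CPM. The last was uneven, with 2161, 841 and 1832 CPM, and lowest in library 2. SERPINE2, a protease inhibitor, had 1637 ± 532 CPM and was highest there.

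Genes of glycolysis and protein folding filled much of the rest of the highest 30. The glycolytic enzymes ENO1, GAPDH and PKM2 had 3764 ± 308, 3572 ± 300.5 and 2928 ± 487 CPM. Elongation factor EEF2 was among the most even of these genes, with 3463, 3478 and 3534 CPM. The chaperones of the endoplasmic reticulum CALR, HSP90B1, HSPA5 and CANX had 2041, 1965, 1624 and 1603 CPM, and the cytosolic chaperones HSPA8 and HSP90AB1 had 2282 and 1678 CPM. CCND1 was the 14th gene of the table and the only cyclin among the highest 30. Other genes of the 30 were CSRP1, APP, FTL, PKP1, PSAP, HNRNPA2B1 and CAPRIN1, with 1753 to 1941 CPM except PSAP with 1637 CPM. PKP1, plakophilin 1, is best known as a desmosome protein of epithelia, and it had 1487, 2325 and 1677 CPM. No ribosomal protein gene was among the highest 30 and 2 were among the highest 100.

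**Figure D1:**
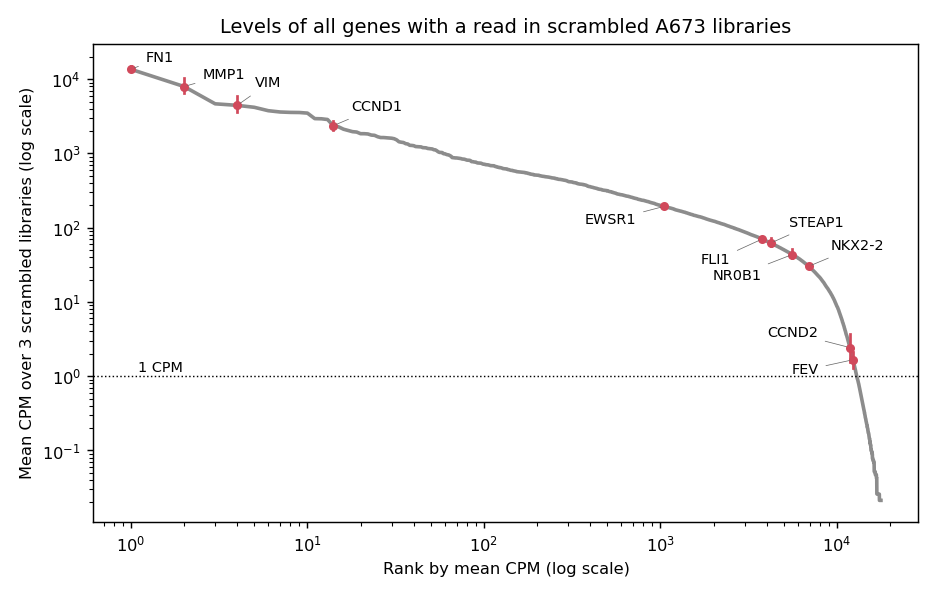
Mean CPM of every gene with a read (vertical, log scale) against its rank (horizontal, log scale). The red points are named genes with bars from their lowest to their highest scrambled library, and the dotted line marks 1 CPM: CCND1 stands at rank 14 with 2363 CPM, and FLI1, STEAP1, NR0B1 and NKX2-2 lie between 30.2 and 70.3 CPM.

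Of 30 FET and ETS family genes 20 were expressed, 8 were low and 2 were not detected, against 53.9% expressed over all gene rows. The FET genes EWSR1 and TAF15, which encode RNA-binding proteins, had 63.9 ± 2.51 and 49.3 ± 4.26 CPM per kb, and their library ranges did not overlap. With the longest transcript as length, in place of all exons, EWSR1 had 26.6 and TAF15 53.1 CPM per kb, so this order turns round with the length used. EWSR1 itself had 198, 198 and 185 CPM. Counts per gene do not separate the fusion transcript from the intact genes, so neither the EWSR1 nor the FLI1 level measures the fusion. ERF, a repressor of the family, led the ETS genes with 49.9 CPM per kb, followed by ETS1 with 29.5, ETV5 with 22.5, ELK3 with 20.8, ELK1 with 18.03 and FLI1 with 15.6 CPM per kb. Of the ETS genes that replace FLI1 in rarer Ewing fusions, ERG, the closest relative of FLI1, had 0.128, 0 and 0.155 CPM, and FEV had 1.28, 1.64 and 2.09 CPM. ETV4 and ETV1, which also occur in such fusions, were expressed with 8.72 and 7.95 CPM per kb and overlapped each other in their ranges. The ETS genes of epithelia and blood were close to 0: ELF3 had 0.307 CPM, SPDEF 0.0470 CPM, EHF 0.0777 CPM and SPI1 0.0517 CPM, and ELF5 and SPIC had no read.

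Of 51 genes known as activated by EWS-FLI1 48 were expressed, with a median of 24.2 CPM per kb against 9.66 over all expressed genes with a length. Of 39 genes known as repressed by it 35 were expressed, with a median of 60.1 CPM per kb. Over all gene rows 53.9% were expressed. A level in a single condition does not measure regulation. Both lists were written from general knowledge of the fusion, and like the other lists they were chosen with earlier results of these data known. Activated members with high levels were CCND1 with 537 CPM per kb, caveolin 1 (CAV1) with 382, ITM2A with 209 and the kinase JAK1 with 152 CPM per kb. LIPI, a lipase used as a marker of the tumour, had 139, 121 and 136 CPM, and the adhesion receptor GPR64 (also called ADGRG2) had 193, 179 and 189 CPM. PRKCB, a protein kinase C, had 194, 197 and 210 CPM. These 3 genes were level across the libraries. DKK2, a WNT modulator, was not, with 101, 41.1 and 95.5 CPM. The telomerase gene TERT had 4.91 ± 1.62 CPM. The peptide gene CCK, a known target of the fusion in other Ewing lines, had 0.510, 1.32 and 0.773 CPM, and BCL11A had 0.141 CPM.

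Among the repressed members FN1, TNC, annexin A1 (ANXA1) and COL3A1 were highest, with 1494, 395, 368 and 291 CPM per kb. The cell cycle inhibitor CDKN1A had 278, 665 and 278 CPM, and the hyaluronan receptor CD44 had 337, 803 and 387 CPM. Both were more than doubled in library 2 against library 1, as was IER3, with 192, 472 and 197 CPM. In library 2, 23 of the 35 expressed members of this list lay above both other libraries, against 35.4% of all expressed genes, with a median log2 difference of 0.29. Of the 48 expressed activated members 28 lay below both, against 48.1% of all expressed genes, with a median of -0.21. Over all expressed genes the median was -0.05. Low members were DKK1 with 1.147 CPM, S100A6 with 0.365 CPM, LUM with 0.676 CPM and MXRA5 with 0.193 CPM. IGFBP3, a binding protein of insulin-like growth factors that the fusion is known to silence, had 1.53, 3.51 and 1.47 CPM.

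Lineage genes were expressed in part, and no lineage list was expressed in full. Mesenchymal and stromal genes were the most complete of these lists, with 20 of 25 expressed, followed by neural crest genes with 19 of 25. Fat cell genes had 5 of 10, neuronal and neuroendocrine genes 17 of 36, bone and cartilage genes 7 of 16, endothelial genes 6 of 14, epithelial genes 10 of 24 and pluripotency genes 6 of 16. Melanocyte genes had 2 of 6 expressed, genes of liver, gut, lung, thyroid and kidney 5 of 17, blood cell genes 4 of 23 and skeletal muscle genes 2 of 16. Against the share of 53.9% over the whole table, the first pair of lists lay above it and the others below it.

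**Figure D2:**
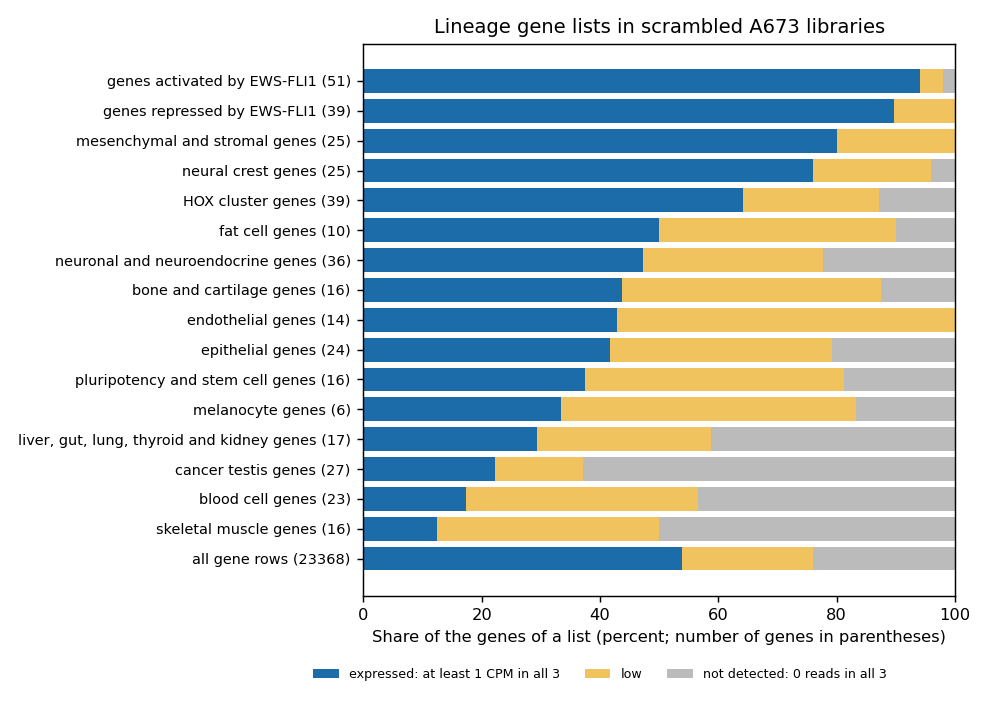
Share of each gene list (percent, horizontal) that was expressed, low or not detected in the scrambled libraries, with the number of genes in parentheses and all 23368 genes as the lowest bar. The mesenchymal list had 20 of 25 genes expressed, and the skeletal muscle list had 2 of 16.

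In the mesenchymal list VIM, FN1 and galectin 1 (LGALS1) were highest, with 2379, 1494 and 1384 CPM per kb, and smooth muscle actin (ACTA2) followed with 591. The surface markers of mesenchymal stem cells NT5E, ENG and THY1 had 118, 40.8 and 22.6 CPM per kb. The cadherins CDH11 and CDH2 had 267, 274 and 259 CPM and 82.8, 92.4 and 76.7 CPM. The zinc finger factors of the mesenchymal state differed in level, with 13.8 CPM per kb for ZEB2 and 2.55 for ZEB1. PRRX1, a limb mesenchyme factor, was low with 0.215 CPM, and so were decorin (DCN) with 0.679 CPM, TBX15 with 0.396 CPM and MEOX2 with 0.0260 CPM.

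Of the neural crest genes ZIC2, a zinc finger factor of the neural plate border, had 84.1, 77.5 and 87.1 CPM, and PAX3, a paired box factor of the same region, had 23.3, 23.4 and 23.3 CPM. PAX3 was among the 10 most even genes of the table with a mean of at least 20 CPM. Its coefficient of variation of 0.203% lay below what sampling of its 365, 300 and 302 reads alone gives. The evenness is therefore not read as a trait of the gene. Per kb ID3 led the list with 59.2, followed by ID1 with 32.3, ZIC2 with 27.8, MSX1 with 21.1, TWIST1 with 19.2 and SOX9 with 13.1. ID1 was uneven, with 26.8, 62.5 and 30.1 CPM, and in libraries 1 and 3 it lay below ZIC2 per kb, so its place ahead of ZIC2 rests on library 2. SOX10, the master factor of glia and melanocytes of the crest, had no read in any library, and the crest genes ERBB3 and EDNRB had 0.292 and 0.0730 CPM.

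The highest neuronal gene was UCHL1, a ubiquitin hydrolase, with 864, 996 and 783 CPM and 713 CPM per kb. Neuronal tubulin (TUBB3), nestin (NES), ENO2, neurofilament M (NEFM) and tau (MAPT) had 185, 49.6, 46.4, 28.8 and 20.3 CPM per kb. The synaptic vesicle gene SYT1 had 93.8, 104 and 94.2 CPM. The fate regulators NEUROG1, NEUROG2, PHOX2A and OLIG2, the catecholamine enzymes TH and DDC and the microtubule gene DCX had no read. NEUROD1 had 0.0258 CPM, and the granins CHGA and CHGB had 0.167 and 0.137 CPM. Other regulators of the list were expressed, HAND2, ISL1 and POU4F1 with 21.3, 11.04 and 28.8 CPM.

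Of the muscle genes TNNT1, the slow skeletal troponin T, had 122, 140 and 124 CPM, and the embryonic myosin MYH3 had 3.57, 2.49 and 4.10 CPM. The myogenic factors MYOD1, MYOG, MYF5 and MYF6 had no read, nor had CHRNA1, MYH8, TMEM8C and TNNT3. Desmin (DES), a filament of all muscle, had 0.210 CPM.

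Among bone and cartilage genes SOX9 led with 13.1 CPM per kb, followed by osteopontin (SPP1) with 11.2 and ALPL with 10.0. SPP1 had 9.57, 37.6 and 7.65 CPM, and its place rests on library 2: without it the mean was 8.61 CPM in place of 18.3, and per kb SPP1 lay below ALPL in both other libraries. RUNX2, the main bone factor, had 5.74, 6.16 and 5.26 CPM, whereas SP7, another bone factor, had 0.0728 CPM and aggrecan (ACAN) and IBSP had no read. The fat cell list held CEBPB with 21.3 CPM per kb and PPARG with 0.631, and ADIPOQ had no read. Of the 6 endothelial genes expressed, endomucin (EMCN), a sialomucin of venous endothelium, was highest with 143, 129 and 133 CPM, whereas CDH5 and PECAM1 had 0.130 and 0.533 CPM. Of the 10 epithelial genes expressed, the tight junction gene CLDN1 had 336, 695 and 393 CPM, highest in library 2, and the keratin KRT18 had 69.7, 77.5 and 78.0 CPM. E-cadherin (CDH1) had 0, 0 and 0.155 CPM, EPCAM had 0.252 CPM, and KRT5, KRT14, KRT19 and the epithelial regulators GRHL2 and OVOL2 had no read.

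Among blood genes only CD68, KIT, CD79A and CD34 were expressed, with 35.2, 15.998, 1.75 and 1.54 CPM, and PTPRC, the pan-leukocyte antigen, had no read. KIT had 18.6, 8.34 and 21.0 CPM. WT1, a kidney and mesothelium factor, was the highest organ gene with 31.4, 45.9 and 32.0 CPM, and HNF4A, CDX2, NKX2-1 and ALB had no read. SOX2, a stem cell factor, had 55.4, 58.1 and 58.4 CPM, and LIN28B, a let-7 inhibitor, had 88.9, 52.0 and 97.8 CPM. Of the other pluripotency genes POU5F1 had 0.116 CPM, LIN28A had 0.0213 CPM, and NANOG, TDGF1 and DPPA4 had no read. MYCN had 0.885 CPM while MYC had 174, 219 and 182 CPM.

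HOX genes, which set position along the body axis, were expressed in 25 of 39 cases, 9 were low and 5 were not detected. The HOXD cluster held 60.3% of the summed CPM of HOX genes, HOXB 23.2%, HOXC 16.1% and HOXA 0.342%. Summed over the cluster, HOXD genes had 383, 297 and 353 CPM, and HOXA genes had 2.36, 1.79 and 1.70 CPM. HOXD11, a posterior gene of limb and vertebrae, was highest with 84.7, 76.5 and 84.9 CPM, which is 53.5 CPM per kb, and its range overlapped that of no other HOX gene. HOXD4, HOXD13, HOXD9 and HOXD10 followed with 29.2, 29.1, 26.1 and 25.9 CPM per kb. HOXD12, which lies between HOXD11 and HOXD13, had 0.255, 0 and 0.0773 CPM. In the HOXA cluster HOXA10 was the only expressed gene, with 1.02, 1.01 and 1.00 CPM, just at the threshold, and HOXA2, HOXA3, HOXA4 and HOXA13 had no read. Of the 24 pairs of neighbours in the order of the expressed HOX genes per kb, 14 overlapped in their ranges over the libraries. HOXC4, HOXC5 and HOXC6 share exons, and their reads may be assigned to the wrong gene of the trio.

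**Figure D3:**
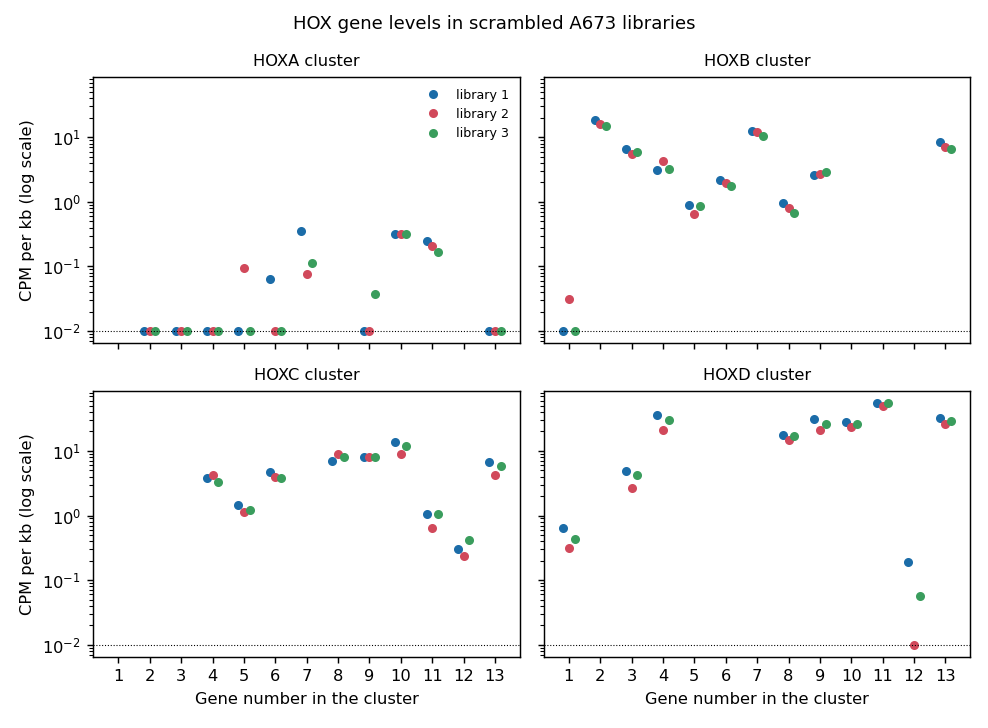
CPM per kb (vertical, log scale) of 38 of the 39 HOX genes by its number in the cluster (horizontal), with 1 point per scrambled library; points on the dotted line are genes with 0 reads in that library. HOXD8 to HOXD11 and HOXD13 lie high in all 3 libraries with HOXD12 near 0 between them, and the HOXA cluster lies at or near 0.

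Of 58 receptor tyrosine kinase genes 39 were expressed, 16 were low and 3 were not detected, against 53.9% expressed over all gene rows. EPHA2, an ephrin receptor, was highest with 295, 339 and 304 CPM and 78.9 ± 5.84 CPM per kb. FGFR1 came next with 293, 345 and 283 CPM and 47.1 ± 5.10 CPM per kb. The ranges of EPHA2 and FGFR1 did not overlap. EPHB4, PDGFRB, PTK7 and EPHA3 followed with 33.3, 29.6, 27.1 and 25.9 CPM per kb. PDGFRB, the receptor of platelet-derived growth factor on stromal cells, had 227, 81.4 and 199 CPM, lowest in library 2, and its mean without that library was 213 CPM in place of 169. Of the 38 pairs of neighbours in this order 31 overlapped in their ranges, so most of the order below the leading genes is not resolved. The FGF receptors were spread widely, with 10.1, 2.18 and 0.527 CPM per kb for FGFR4, FGFR3 and FGFR2. The neurotrophin receptors NTRK2 and NTRK3 had no read. EGFR, ERBB2, ERBB3 and ERBB4 had 0.739, 6.39, 0.0393 and 0.263 CPM per kb. MET had 10.8, 28.4 and 13.1 CPM with the highest level in library 2, and PDGFRA had 2.70 CPM.

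**Figure D4:**
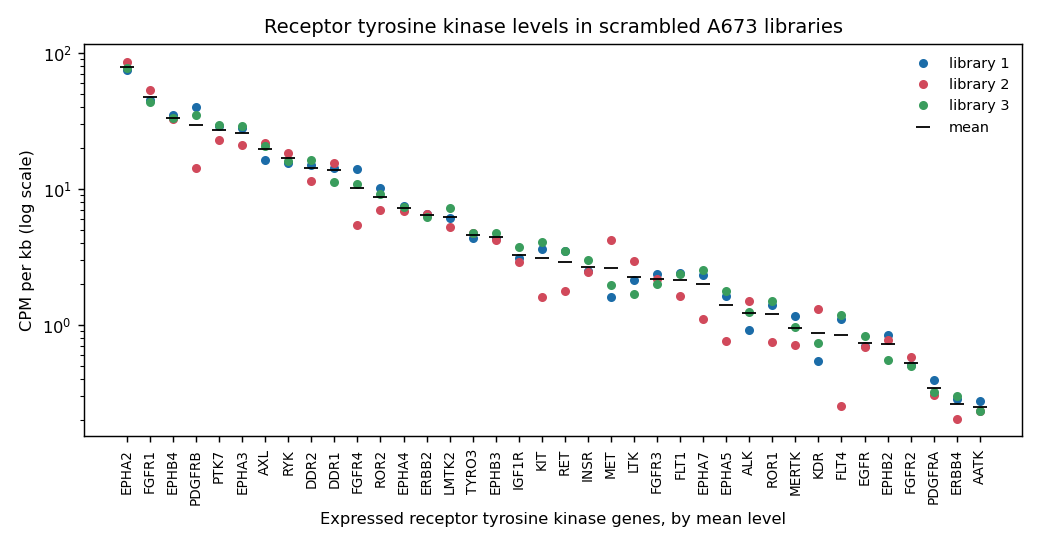
CPM per kb (vertical, log scale) of 38 of the 39 expressed receptor tyrosine kinase genes in order of their mean, with 1 point per scrambled library and a dash for the mean. EPHA2 and FGFR1 lead with 78.9 and 47.1 CPM per kb, and PDGFRB, FGFR4, KIT and FLT4 show library 2 well below libraries 1 and 3.

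The insulin-like growth factor (IGF) axis, a drug target in this tumour, had 14 of 20 genes expressed. IGF1R, the receptor, had 38.02, 35.7 and 45.5 CPM and stood 18th of the 39 expressed receptor tyrosine kinases with 3.25 CPM per kb. INSR, the insulin receptor, had 2.64 CPM per kb, and IGF2R, a scavenging receptor, had 34.4. The ligand IGF1 had 24.6, 13.8 and 21.6 CPM. IGFBP2 was by far the highest of the axis, with 812, 511 and 667 CPM and 423 CPM per kb. Of the other binding proteins, IGFBP5 had 14.2, 48.8 and 11.9 CPM with the highest level in library 2, IGFBP4 had 7.91 CPM and IGFBP1 had 0.0258 CPM. The adaptors IRS2 and IRS1 had 17.9 and 5.35 CPM per kb, and IRS4 had no read. IGF2 and its readthrough row INS-IGF2 were both at 0, as was GRB10. Readthrough rows, which join neighbouring genes, had 220 component genes and 48 of these were at 0, and whether the shared sequence of these rows bears on the 0 of IGF2 was not tested.

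Of 48 nuclear receptor genes 26 (54.2%) were expressed, close to the 53.9% of all gene rows. RXRA, the common partner of many of these receptors, NR2F2 and NR1H2 were highest with 51.7, 47.3 and 36.3 CPM per kb. RXRA and NR2F2 overlapped in their ranges, and with the longest transcript as length RXRA had 16.5 CPM per kb and NR2F2 57.8. ESRRA and NR0B1 followed with 21.6 and 19.8 CPM per kb. NR2F2 was even, with 300.2, 307 and 307 CPM, while its relative NR2F1 had 9.31, 2.81 and 7.81 CPM, lowest in library 2. The glucocorticoid receptor NR3C1 had 19.1, 18.3 and 19.3 CPM. The oestrogen receptors ESR1 and ESR2 had 0.146 and 0.412 CPM, and the progesterone receptor PGR had 0.0730 CPM. HNF4A, NR0B2, NR1I2, NR2E3 and RXRG had no read.

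Of 44 peptide, chemokine and other G protein-coupled receptor and ligand genes 19 were expressed. The thrombin receptor F2R led with 565, 516 and 537 CPM and 133 CPM per kb. NPY1R, a neuropeptide Y receptor, had 134, 195 and 139 CPM, and its ligand NPY and the receptor NPY5R were also expressed, with 10.2 and 10.1 CPM, whereas NPY2R had no read. CXCR4, a chemokine receptor, had 21.4, 11.5 and 20.4 CPM, and its ligand CXCL12 had 8.04, 3.74 and 6.18 CPM, both lowest in library 2. CXCR7, the other CXCL12 receptor, had 0.0213 CPM. Of the sphingosine phosphate receptors S1PR3, S1PR1 and S1PR2 had 10.9, 7.196 and 4.53 CPM per kb.

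Developmental receptors were almost all expressed, with 30 of 32 genes of the WNT, NOTCH, hedgehog, TGF-beta and BMP pathways. Over all gene rows the share expressed was 53.9%. TGFBR2, the type II receptor of TGF-beta and a gene the fusion is known to repress, was highest with 209, 252 and 200.4 CPM and 46.9 CPM per kb. LGR4, LRP5, SMO, FZD2 and FZD8 followed with 28.2, 22.1, 19.7, 19.5 and 18.1 CPM per kb. NOTCH2, NOTCH3 and NOTCH1 had 12.8, 8.49 and 6.23 CPM per kb, with ranges that did not overlap, and NOTCH4 had 0.365 CPM. FZD10 had no read. GLI1, a hedgehog effector and direct target of the fusion, had 17.0, 8.57 and 18.7 CPM. In library 2, 24 of the 30 expressed receptors lay below both other libraries, against 48.1% of all expressed genes, with a median log2 difference of -0.27.

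Cytokine, death and pattern receptor genes were expressed in 24 of 31 cases. The TRAIL receptors were ordered TNFRSF10B with 120 ± 30.8 CPM per kb, the decoy TNFRSF10D with 32.0 and TNFRSF10A with 5.92, and the decoy TNFRSF10C had 0.0685 CPM. FAS had 199, 246 and 209 CPM, and TNFRSF12A had 118, 212 and 118 CPM. The interferon receptors IFNGR2, IFNGR1, IFNAR1 and IFNAR2 had 36.7, 19.6, 15.3 and 4.40 CPM per kb. Of the Toll-like receptors TLR3 was expressed with 1.87 CPM, and TLR2, TLR4 and TLR9 were low.

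Surface antigens that have been named as targets in sarcoma were mostly expressed, 25 of 28. CD276 (B7-H3) had 249.9, 203 and 231 CPM, and IL1RAP, a coreceptor of interleukin 1, had 165, 170 and 187 CPM. CD274 (PD-L1) had 17.0, 34.6 and 17.0 CPM. B4GALNT1, which makes GM2 and GD2 gangliosides, had 68.7, 49.9 and 62.8 CPM, while ST8SIA1, the GD3 synthase upstream of GD2, had 0.0990 CPM. Of the class I antigen genes B2M had 604 CPM per kb, and HLA-C and HLA-B had 118 and 18.3 CPM per kb. Reads of the HLA genes can be lost or assigned to each other, so their order is uncertain.

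Of 41 glucose transport and glycolysis genes 31 were expressed, against 53.9% of all gene rows. The expressed members had a median of 29.3 CPM per kb. A single isoform led several steps. ENO1 had 1566 CPM per kb against 46.4 for ENO2, 33.8 times as much, and ALDOA had 478 against 2.59 for ALDOC. HK1 had 70.2 CPM per kb, HK2 had 10.97 and HK3 had 0.0253. PFKP, PFKL and PFKM had 118, 54.7 and 35.8 CPM per kb, and 1 of the 2 neighbouring pairs kept this order with the longest transcript as length. LDHB, the heart form of lactate dehydrogenase, had 976, 928 and 961 CPM, and LDHA, the muscle form, had 309, 344 and 316 CPM. Per kb LDHB was 5.54 times as high as LDHA, and their ranges did not overlap. The glucose transporters SLC2A1 and SLC2A3 had 22.8 and 18.2 CPM per kb. The lactate carrier SLC16A1 had 46.5 CPM per kb and SLC16A3, the export form of many tumours, had 0.343. PKM2, as the table names the muscle pyruvate kinase gene, does not separate the splice forms of that gene.

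Of 40 citric acid cycle and pentose phosphate genes 37 were expressed, and their median coefficient of variation over the libraries was 5.94%, against 8.10% for the glycolysis list and 10.1% over all expressed genes, which include more genes of low count. PGD, which makes NADPH, had 254 CPM per kb, and SDHB, a complex II subunit, had 127 with 147, 146 and 147 CPM. MDH2, MDH1 and citrate synthase (CS) had 107, 105 and 104 CPM per kb. The isocitrate dehydrogenase genes IDH1 and IDH2 were less even and lowest in library 2, with 208, 100.2 and 178 CPM and 184, 125 and 176 CPM. PCK1, the cytosolic enzyme of gluconeogenesis, had no read, while PCK2 had 5.85 CPM.

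Of 48 amino acid and one-carbon genes 39 were expressed. AHCY, which clears S-adenosylhomocysteine, had 181 CPM per kb and ornithine decarboxylase (ODC1) had 146. TDO2, a tryptophan dioxygenase best known from liver, had 227, 420.4 and 165 CPM and 159 CPM per kb, highest in library 2, while the other tryptophan dioxygenase IDO1 had no read. The serine synthesis genes PHGDH, PSAT1 and PSPH had 81.7, 40.6 and 10.5 CPM per kb. SHMT2, the mitochondrial serine hydroxymethyltransferase, had 78.2 CPM per kb and the cytosolic SHMT1 had 16.5. ASS1, which makes argininosuccinate for arginine synthesis, had 0.191, 0.546 and 0.155 CPM, and the next enzyme ASL had 16.2 CPM. GLDC, the glycine decarboxylase, had 0.167 CPM, and OTC and BHMT had no read. MTAP, a methionine salvage gene next to CDKN2A, had 45.8, 47.4 and 44.2 CPM.

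Cholesterol and fatty acid genes were expressed in 34 of 39 cases and depended on library 2. SCD, the desaturase of fatty acids, had 1409.8, 541 and 1139.5 CPM, and fatty acid synthase (FASN) had 1125, 649 and 1042 CPM. SREBF1, the factor that drives these genes, had 245, 59.2 and 184 CPM. Library 2 lay below both others for 27 of the 34 expressed genes, against 48.1% of all expressed genes, with a median log2 difference of -0.51. Without library 2 the mean of SREBF1 was 214 CPM in place of 163, and that of SCD was 1275 CPM in place of 1030.1. Of 32 nucleotide and NAD genes 27 were expressed, among them IMPDH2 with 109 CPM per kb and ATIC with 97.9. The enzymes that start NAD salvage were both expressed, NAMPT with 38.3, 68.2 and 38.1 CPM and NAPRT1 with 34.3, 26.7 and 32.0 CPM.

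Of 49 genes of G1 and S phase 47 were expressed, and of 45 genes of G2 and mitosis 41, against 53.9% of all gene rows. The D cyclins, which drive entry into the cycle, differed widely. CCND1 had 537 ± 72.5 CPM per kb, CCND3 had 15.3 ± 1.35 and CCND2 had 0.375 ± 0.171, with ratios of 34.995 and 40.9 between neighbours. Their kinases CDK4 and CDK6 had 134 ± 4.90 and 8.11 ± 2.62 CPM per kb, and CDK1 and CDK2 lay between them with 82.5 and 42.0. The E cyclins CCNE1 and CCNE2 had 7.15 and 2.55 CPM per kb. CCNB1 had 107 CPM per kb, and CCNA2 and CCNB2 overlapped with 34.3 and 29.1. The DNA helicase genes MCM7 and MCM3 had 133 and 98.7 CPM per kb, and LRWD1, the gene that the study's other siRNAs target, had 49.6, 52.5 and 49.4 CPM. The cohesin gene STAG2, which is mutated in part of these tumours, had 31.9 CPM per kb against 9.60 for STAG1.

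Library 2 had fewer counts of dividing-cell genes. MKI67, a nuclear protein of cycling cells, had 369, 170 and 447 CPM, and CDK1 had 197, 112 and 196 CPM. Library 2 lay below both others in 40 of 41 expressed G2 and mitosis genes and in 37 of 47 expressed G1 and S genes, with median log2 differences of -0.75 and -0.53. Over all 12589 expressed genes the median was -0.05, and 6059 of them lay below both others. These lists were chosen with earlier results of these data known, so the counts are descriptions only. The mitosis list summed to 6606, 3988 and 6819.8 CPM. The genes of the citric acid cycle list and the glycolysis list had medians of 0.02 and 0.06 in library 2. In bulk RNA fewer cells in division and less of these RNAs in each cell cannot be told apart.

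**Figure D5:**
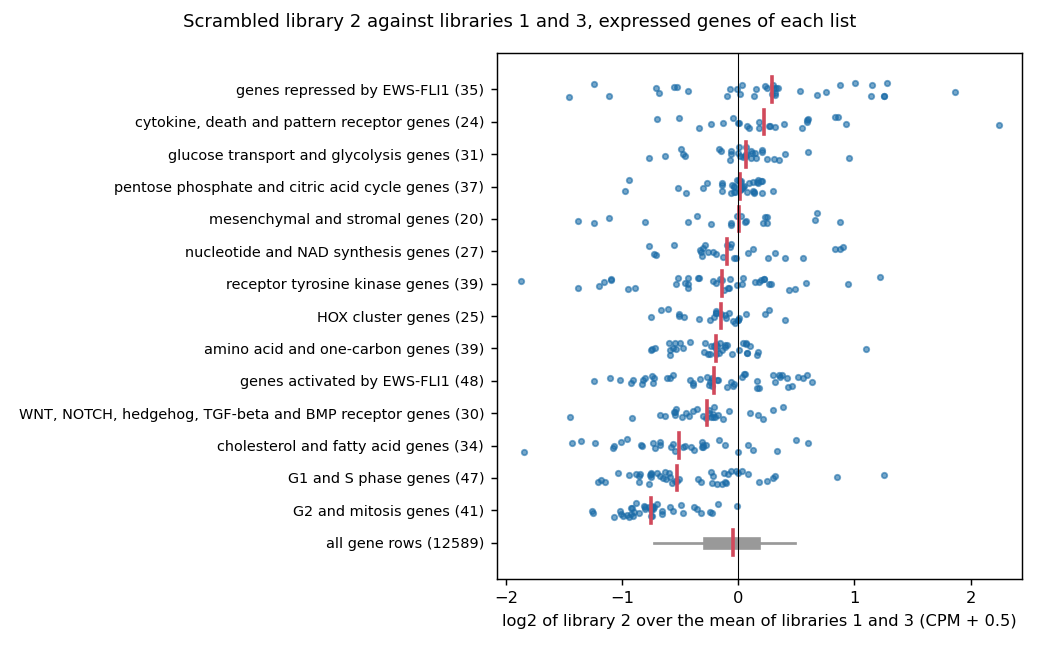
Log2 difference of library 2 from the mean of libraries 1 and 3 (horizontal, CPM plus 0.5) for the expressed genes of 14 lists, with 1 point per gene, red bars for medians, and for all 12589 expressed genes a thick bar over the middle 50% and a thin bar from the 5th to the 95th percentile. The G2 and mitosis genes have a median of -0.75 and the EWS-FLI1-repressed genes a median of 0.29.

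CDKN2A and CDKN2B, the inhibitors of CDK4 and CDK6 on the short arm of chromosome 9, had no read in any library, and their antisense gene CDKN2B-AS1 and the neighbour C9orf53 had none. The neighbouring genes MTAP and KLHL9 were expressed, with 45.8 ± 1.59 and 29.3 ± 3.73 CPM, while DMRTA1, ELAVL2, IFNB1 and IFNE on the same arm were low or not detected. The counts do not show whether the DNA of the silent genes is present. RB1 had 103, 89.7 and 109 CPM. The ubiquitin ligase gene MDM2 and its relative MDM4 had 9.11 and 4.33 CPM per kb. CDKN1A, the death receptor gene FAS and BAX had 162, 84.4 and 52.2 CPM per kb.

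Of 29 apoptosis genes 25 were expressed. The survival genes were ordered MCL1 with 94.6 CPM per kb, BCL2L1 with 43.3, BCL2L2 with 20.3 and BCL2 with 1.37, and none of these neighbours overlapped. Among the killers BAX had 52.2, BAK1 17.6 and BCL2L11 1.85 CPM per kb, and HRK and BIK were low. Caspase 8 (CASP8), which TRAIL receptors need, had 28.1, 26.5 and 22.3 CPM, and CASP10 was low with 1.72, 0.623 and 0.850 CPM.

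Of 33 genes of drug response 30 were expressed, against 53.9% of all gene rows. SLFN11, a helicase-like gene tied to response to DNA damage, had 156, 138 and 169 CPM, and PARP1 had 435, 345 and 457 CPM. GSTP1, a glutathione transferase, led with 619 CPM per kb. TOP1 had 64.3 CPM per kb, and TOP2B and TOP2A overlapped with 46.1 and 45.1. In libraries 1 and 3 TOP2A, with 53.6 and 54.8 CPM per kb, lay above TOP2B, with 44.9 and 49.6, and in library 2 it lay below, with 26.8 against 43.7. The drug pump ABCB1 had no read and ABCG2 had 0.616 CPM, whereas ABCC1 had 102, 127 and 114 CPM. BRAF had 15.4, 10.6 and 13.5 CPM, and MGMT, which repairs alkylated guanine, had 29.7, 25.5 and 24.1 CPM.

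Cancer testis genes were the least expressed list after skeletal muscle and blood, with 6 of 27 expressed and 17 without a read. MAGED1, a member of the MAGE family that normal tissues also express, was highest with 184 CPM per kb. PRAME had 83.1, 67.0 and 70.3 CPM, whereas MAGEA1, MAGEA3, MAGEA4, MAGEC1, CTAG1B and SSX2 had no read, and many of these genes have near-identical copies. Of 19 long noncoding RNA genes 14 were expressed. SNHG1 and DANCR had 101 and 58.6 CPM per kb, and 57.8 and 134 with the longest transcript as length, so their order turns round with the length used, and MALAT1 had 27.7 CPM per kb. MEG3, an imprinted gene, had 159, 199.6 and 155 CPM while H19 had no read. HOTAIR, which lies in the HOXC cluster, had 3.06, 1.56 and 2.78 CPM, and HOTTIP and HOTAIRM1, which lie beside HOXA, had no read.

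Promoter sequences of RefSeq (GRCh38.p14, 250 bases before to 50 after the start) were matched by symbol for 15639 genes, and short words were counted on either strand. The ETS core CCGGAAGT was in 9.14% of 9900 promoters of expressed genes, 1.504% of 2993 of low genes and 0.947% of 2746 of genes that were not detected, with 6.24% over all promoters. The classes also differed in base composition, with a median GC content of 65.7%, 59.7% and 52.0%. Among promoters in the middle tertile of GC content the shares were 11.8%, 1.86% and 2.40%. The TATA word TATAAA ran the other way, with 5.28%, 12.6% and 20.6% of promoters and 9.37% over all, and with 4.16%, 8.52% and 9.45% in that tertile. The paired word GGAAGGAA, a minimal GGAA repeat, was in 3.39%, 3.34% and 4.22% of the promoters and in 3.53% over all. It overlaps the ETS core in part of its letters. Among the activated genes of the fusion 1 of 41 promoters held the ETS core and 1 of 41 the paired word. Such a match is a description of letters, and no match says only that the letters are not in this window.

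The following stretches show the ETS core before highly expressed genes, the paired word before an activated gene, and the TATA word before an expressed and a silent muscle gene and before NR0B1 and HOXD13. Each is the 120 bases before the annotated start in the direction of the gene, and capitals mark the word. MDH2 (chr7:76047986-76048105, plus strand) holds the ETS core at 113 and 69 bases before the start. JAK1 (chr1:65067747-65067866, minus strand) and IDH3B (chr20:2664217-2664336, minus strand) hold it at 62 and 40 bases. CAV1 (chr7:116524889-116525008, plus strand) holds the paired word, read on the other strand, at 18 bases. NR0B1 (chrX:30309391-30309510, minus strand), TNNT1 (chr19:55149207-55149326, minus strand) and MYF5 (chr12:80716792-80716911, plus strand) hold the TATA word at 32, 29 and 28 bases. HOXD13 (chr2:176092601-176092720, plus strand) holds it on both strands, as overlapping words at 29 and 27 bases.
MDH2: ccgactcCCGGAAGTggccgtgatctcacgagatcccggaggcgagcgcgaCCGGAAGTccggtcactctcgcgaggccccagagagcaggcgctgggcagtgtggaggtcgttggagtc
JAK1: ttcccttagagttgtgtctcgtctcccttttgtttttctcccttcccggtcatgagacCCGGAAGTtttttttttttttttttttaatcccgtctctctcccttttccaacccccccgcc
IDH3B: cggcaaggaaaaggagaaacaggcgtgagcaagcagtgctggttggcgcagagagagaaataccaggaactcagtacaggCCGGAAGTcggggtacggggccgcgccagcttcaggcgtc
CAV1: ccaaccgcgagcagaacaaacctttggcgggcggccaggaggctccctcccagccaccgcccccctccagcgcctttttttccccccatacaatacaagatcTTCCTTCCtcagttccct
NR0B1: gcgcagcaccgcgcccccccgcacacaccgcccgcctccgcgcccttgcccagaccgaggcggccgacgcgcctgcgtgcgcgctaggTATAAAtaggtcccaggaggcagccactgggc
HOXD13: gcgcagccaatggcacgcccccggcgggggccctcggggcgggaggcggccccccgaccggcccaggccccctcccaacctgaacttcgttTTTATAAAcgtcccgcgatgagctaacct
TNNT1: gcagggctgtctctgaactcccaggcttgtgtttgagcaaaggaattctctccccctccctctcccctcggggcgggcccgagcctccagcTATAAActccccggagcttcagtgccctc
MYF5: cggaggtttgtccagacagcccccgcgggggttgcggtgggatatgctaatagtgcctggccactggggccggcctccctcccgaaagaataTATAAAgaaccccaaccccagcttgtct

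The TATA word stood at a like distance before TNNT1, with 128 CPM, and before MYF5, with no read. In the skeletal muscle list 6 of 10 promoters held this word and in the HOX list 4 of 20, against 9.37% of all promoters and 20.6% of those of genes not detected. The ETS core was in 4 of 35 promoters of citric acid cycle and pentose phosphate genes (11.4%), close to the 9.14% of all promoters of expressed genes. They include MDH2 with 301, 279.8 and 283 CPM and IDH3B with 133, 152 and 136 CPM.

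The spread over the libraries was small for most genes and came mainly from library 2. Of 8159 genes with a mean of at least 20 CPM the median coefficient of variation was 8.13%. The coefficient expected from the mean count by sampling alone had a median of 3.35%. Without library 2 the observed median was 3.85%, from only 2 values per gene, and a coefficient from so few values runs low. It does not bring libraries 1 and 3 to sampling alone, since their chi-square per gene was 3.56. Library 2 was the farthest of the 3 in 62.1% of the 8159 genes. The 10 most even genes were ZNF3, DAZAP1, NPLOC4, ZFAND3, PAX3, PRPF31, TBCE, DCTN1, FAM131A and TXNIP, and ZNF3 had 52.8, 52.9 and 52.9 CPM. These are the extremes of 8159 genes with 3 values each, so their evenness is not read as a trait of the genes. The 10 most uneven were KRT75, HKDC1, C3, MMP3, IL1B, IGFBP5, PTX3, SGK1, TNFAIP3 and IL1A, all with the highest level in library 2. Interleukin 1 beta (IL1B) had 36.3, 147 and 36.4 CPM, the keratin KRT75 had 9.57, 59.6 and 9.66 CPM, and TNFAIP3, an inhibitor of inflammatory signalling, had 98.8, 298 and 114 CPM. The complement gene C3 had 9.06, 44.9 and 8.81 CPM and the stromelysin MMP3 had 13.8, 86.7 and 21.95 CPM. Of the 100 most uneven genes library 2 was highest in 62 and lowest in 38.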

How the data were processed

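RNA-seq libraries of A673 cells with a scrambled siRNA were analysed, 3 of the 9 libraries of the series, each from an independent experiment per the labels. The authors deposited raw counts of reads per gene. Per the submitters' processing notes the tools were bcl2fastq 1.8.4, TopHat2 2.0.10 and HTSeq 0.5.4p3 with the genome build hg19. The mode of counting, and the annotation it used, were not stated there or in the labels. The TruSeq RNA v2 kit does not mark strand, so reads of overlapping antisense genes cannot be told apart. Because all libraries belong to 1 group, no test was run, and means, SDs and ranges are descriptions.

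Counts were divided by the library total and scaled to CPM. Levels per kb used the union of exons of GENCODE 29 by gene name, which gave a length to 96.6% of expressed genes. Lengths from that annotation may differ from those the authors counted on. The difference of library 2 was taken as log2 with 0.5 CPM added. The 35 lists (992 genes, 6 to 58 each) and the members were chosen with earlier results of these data known. Up to 6 expressed members of each list with the highest level per kb, up to 6 low or undetected members, the 30 highest genes, the 10 most even and 10 most uneven genes and 5 markers were named by rule, and other list members were named for their role. FENDRR had no row. Some list members are counted but not reported by name here. The pairwise chi-square and the coefficient of variation were tested on simulated counts. Alternatives were TMM and RLE scaling (edgeR 4.0.16, R 4.3.3), other thresholds, another gene length and leaving out each library. Python 3.11.15, numpy 2.4.6, pandas 2.3.3 and matplotlib 3.10.9 were used.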

Additional observations from a re-analysis of the deposited data

How the results depend on the processing

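No paired analysis was possible because the 3 libraries form a single group. Under TMM and under RLE scaling all 63 summary results stayed within their limits, and the 35 single-gene levels tried moved by less than 1 SD under both scalings. Leaving out 1 of 3 libraries cannot move a mean by 1 SD, so it says nothing of the stability of these levels. The number expressed depended on the threshold in the small lineage lists. With 5 CPM in each library, and with any read in each, skeletal muscle had 1 and 5 genes expressed in place of 2, endothelial genes 3 and 10 in place of 6, blood genes 2 and 11 in place of 4, melanocyte genes 0 and 4 in place of 2, organ genes 1 and 9 in place of 5 and pluripotency genes 3 and 10 in place of 6. Fat cell genes had 3 in place of 5 at 5 CPM, and epithelial genes had 16 in place of 10 with any read. With the longest transcript as length 1 of 2 neighbouring pairs kept its order among the phosphofructokinases and 1 of 2 in the FET family. In the other 20 families the number of pairs in order stayed within its limit, but single pairs could turn round. Among the receptor tyrosine kinases EPHB4 had 28.7 CPM per kb with this length, below PDGFRB with 29.6. Leaving out each library gave a median coefficient of variation of 3.85% to 8.61%, from 2 values per gene. It also gave 1 to 2 pairs in the same order among the PEA3 factors and among the topoisomerases. The lowest value in each case came without library 2. Depth limits the genes at 0, since 0 reads in a library allow a true level of up to about 3 reads.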
